A study of Mus musculus with 2 samples.

Results

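Leukocytes leave the blood in steps, and each step needs a molecule on the wall of the vessel. The 6 genes described here encode such molecules of the endothelium: Sele and Selp (E-selectin and P-selectin, which slow leukocytes into rolling), Icam1, Icam2 and Vcam1 (immunoglobulin-family ligands of leukocyte integrins, which hold them still), and Ackr1 (the Duffy antigen, an atypical receptor that binds and carries chemokines on the wall of venules). They were chosen by symbol, with earlier results of these data known. They are 6 of the 33904 genes in the matrices, and all 6 were found in both.

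Endothelium at rest stores P-selectin in granules, and E-selectin and VCAM-1 are made mainly after cytokine signals. NF-κB is the transcription factor best known for switching on Sele, Icam1 and Vcam1, and postcapillary venules are the classic place where leukocytes leave. ICAM-2, in contrast, is present on resting endothelium.

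The data are 2 droplet libraries of single cells from the dorsal skin of female C57BL/6J mice aged 7 weeks, depilated beforehand and painted daily for 10 days on an area with sides of 2 cm. The Ctrl library comes from skin given the vehicle, 100% ethanol. The AD library, a model of atopic dermatitis, comes from skin given MC903 (calcipotriol, a vitamin D analogue) at 4.5 nmol per application in the same vehicle. How many mice went into each library is not given in the sources used here, no genetic change is named for the mice, and the model is chemical rather than an inherited disease.

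There is 1 library per group, so no test was possible: each statement compares these 2 libraries, not the treatments. Intervals in parentheses are exact 95% intervals that cover counting error only. Levels are unique molecular identifiers (UMIs) relative to all UMIs of a group of cells, scaled to the usual unit CPM. The Ctrl library held 12598 barcodes and 125184653 UMIs, and the AD library 8778 barcodes and 76106062 UMIs. After filtering, 11399 Ctrl cells with a median of 7813 UMIs and 8179 AD cells with a median of 6330 UMIs remained. The libraries shared 35 barcode sequences, of which 29 lay among the cells kept.

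Cells were sorted into gates by how many markers of a cell type had a UMI, and none of the 6 genes was a marker. The blood vessel endothelial gate held 75 Ctrl and 89 AD cells, the lymphatic endothelial gate 298 and 308, the pericyte gate 143 and 84, the fibroblast gate 5161 and 4447, and the keratinocyte gate 1874 and 357. Cells that passed several gates (763 in Ctrl and 209 in AD) were left out, and 1772 and 1936 cells passed none.

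The endothelial gates carried their defining markers. Pecam1, the endothelial adhesion molecule, stood at 1424 CPM in Ctrl against 1570 CPM in AD in the blood vessel endothelial gate, and at 1.73 and 1.76 CPM in keratinocytes. All 11 markers of blood vessel endothelium had UMIs in that gate in both libraries. Prox1, the lymphatic regulator, was at 1653 and 1207 CPM in the lymphatic endothelial gate and had to be at 0 in the blood vessel endothelial gate. The pericyte gate is less pure: its 8 pericyte markers summed to 8869 and 8165 CPM, but 5 markers of vascular smooth muscle to 16179 and 9995 CPM. Markers of other cells were present at low levels in the blood vessel endothelial gate: the 7 fibroblast markers summed to 620 CPM in Ctrl against 335 CPM in AD, the 11 keratinocyte markers to 212 and 24.0 CPM, the 4 leukocyte markers to 16.3 and 10.3 CPM, the 4 mast cell markers to 14 and 289 CPM, and the 5 erythroid markers to 1016 and 129 CPM. All 3 globin genes with enough UMIs and 3 of 4 such fibroblast markers were lower in AD by at least 2-fold. Alas2, an enzyme of red cell precursors, was at 0 in both libraries. Of the 6 platelet markers, which matter because platelets also carry P-selectin, 1 had a UMI in Ctrl and 2 in AD, with a sum of 2.33 and 8 CPM. The part of these other cells in the results was not tested.

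Sele lies on mouse chromosome 1 from 164048234 to 164057677 on the plus strand (GRCm38), and Selp follows it on the same strand from 164115264 to 164150026, 57587 bases further on. Icam1 lies on chromosome 9 from 21015985 to 21028817 on the plus strand, Icam2 on chromosome 11 from 106377656 to 106388075 on the minus strand, and Vcam1 on chromosome 3 from 116109949 to 116129688 on the minus strand. Ackr1 lies on chromosome 1 from 173331886 to 173333750 on the minus strand.

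The 250 bases upstream of the start of Sele, Selp and Icam1 are shown because the levels of these genes were higher together in AD endothelium. Ackr1 was higher too, but its window lies almost wholly in transcribed sequence shared with another gene and is not printed, and it held 1 match, GGAAGCCCC. They are from RefSeq on GRCm38.p6, written 5′ to 3′ on the strand of the gene. Capitals mark letters of 4 motifs, searched on both strands: GGNNNTTCC (the core of an NF-κB site), TTCNNNGAA (a STAT site), the same letters with 1 more N between them and TGANTCA (an AP-1 site), a choice made with the sequences in view.
Sele, chr1:164047984-164048233, plus strand: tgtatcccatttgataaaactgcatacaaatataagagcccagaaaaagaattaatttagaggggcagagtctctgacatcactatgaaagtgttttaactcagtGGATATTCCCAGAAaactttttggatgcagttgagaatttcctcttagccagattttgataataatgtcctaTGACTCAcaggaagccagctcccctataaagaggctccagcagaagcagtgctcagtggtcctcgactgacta
Selp, chr1:164115014-164115263, plus strand: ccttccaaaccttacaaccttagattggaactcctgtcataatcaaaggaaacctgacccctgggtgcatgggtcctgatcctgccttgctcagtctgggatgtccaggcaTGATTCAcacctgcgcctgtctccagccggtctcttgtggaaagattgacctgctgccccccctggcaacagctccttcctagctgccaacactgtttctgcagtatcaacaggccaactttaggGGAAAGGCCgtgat
Icam1, chr9:21015690-21015939, plus strand: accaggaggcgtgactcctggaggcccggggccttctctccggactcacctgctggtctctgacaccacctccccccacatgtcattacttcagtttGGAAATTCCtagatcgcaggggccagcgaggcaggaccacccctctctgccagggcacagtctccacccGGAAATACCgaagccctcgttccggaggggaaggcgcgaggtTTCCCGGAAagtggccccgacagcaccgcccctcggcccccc

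In Sele, GGATATTCC began 145 bases before the start and shared bases with TTCCCAGAA, and TGACTCA followed nearer to the start. In Icam1, GGAAATTCC began 153 bases and GGAAATACC, read on the other strand, 84 bases before the start, followed by TTCCCGGAA. Distances are from the RefSeq start, which for Icam1 lies upstream of the start of the gene given above. Selp held GGAAAGGCC, 14 bases before its start and read on the other strand, and TGATTCA. Among 32851 RefSeq windows of the same length, 15.7% held GGNNNTTCC, 7.02% TTCNNNGAA, 5.85% its longer form and 6.75% TGANTCA, so a match to the first is common. A match describes letters, not a site in use. For Vcam1 and Icam2 no sequence is shown.

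In the blood vessel endothelial gate, Sele, Selp, Ackr1 and Icam1 were higher in AD by at least 2-fold, Icam2 was lower, and Vcam1 lay just inside the limit. Of the 4118 genes with at least 50 UMIs there, 4.78% were higher and 7.38% lower in AD by at least 2-fold, 12.2% in all, against 4 and 1 of the 6 genes described here. The 6 genes were chosen with earlier results of these data known, so the contrast is a description and not a test. The minimum of 50 UMIs is summed over both libraries. Vcam1 and Ackr1, with 28 and 17 UMIs in Ctrl, reached it through AD, and Icam2, with 48 in AD, through Ctrl. With the ratios centred on the median gene, 53.6% of the genes past the limit were higher, against 39.3% uncentred.

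**Figure D1:**
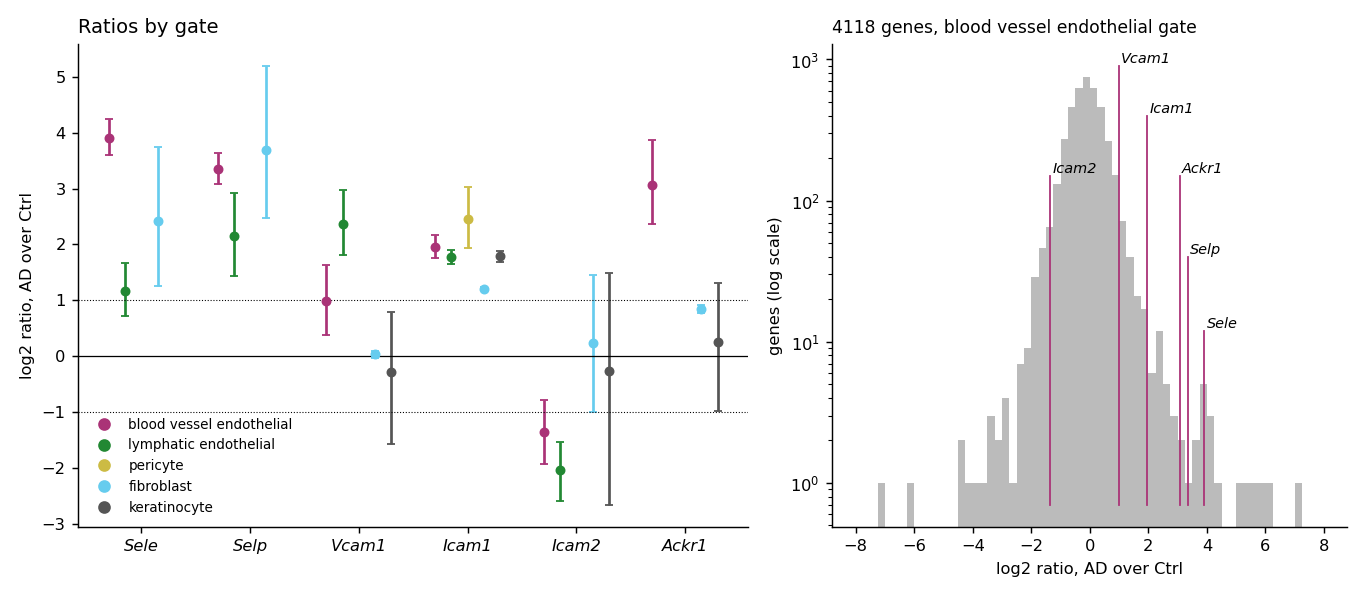
Left, log2 ratio of CPM, AD over Ctrl, for each gene (x axis) in the 5 gates (colours), with 95% counting intervals as bars and dotted lines at 2-fold, for pairs with at least 20 UMIs and none at 0. Right, the number of genes (log axis) by the same ratio in the blood vessel endothelial gate, a count of 0 taken as 0.5, with the 6 genes marked: Sele at 3.91 and Icam2 at -1.35 are the ends of their range.

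E-selectin showed the largest difference of the 6 genes in this gate. Sele had 82 UMIs in Ctrl, or 191 CPM (152 to 237), and 2515 UMIs in AD, or 2874 CPM (2763 to 2989). The AD level was 15-fold higher, with a log2 ratio of 3.91 (3.59 to 4.25), at rank 14 of 4118 genes. Cells with a Sele UMI were 9 of 75 in Ctrl, or 12% (5.64 to 21.6), and 40 of 89 in AD, or 44.9% (34.4 to 55.9). Both the number of Sele cells and the UMIs in each were higher: the median cell with Sele held 8 UMIs in Ctrl and 35.5 in AD, and the highest held 25 and 321. These counts per cell are not adjusted for depth, and the median depth of cells with Sele was 5482 UMIs in Ctrl and 10739 in AD.

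Depth was also higher in AD, with a median of 4427 UMIs per cell of the gate in Ctrl and 8503 in AD. After each cell was thinned to 1000 UMIs, with 7 Ctrl and 2 AD cells too shallow, Sele was seen in 8.82% of Ctrl and 40.2% of AD cells, so the gap in shares remained at equal depth. Keratinocytes, which should lack the gene, gave the background. None of 1874 Ctrl keratinocytes had a Sele UMI, so a share of up to 0.160% is possible at this depth, and 3 of 357 AD keratinocytes did, or 0.840% (0.174 to 2.44), at median depths of 14315 and 10195 UMIs.

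P-selectin showed the same direction. Selp had 115 UMIs in Ctrl, or 268 CPM (221 to 322), and 2392 UMIs in AD, or 2734 CPM (2625 to 2845), a 10.2-fold higher level and a log2 ratio of 3.35 (3.08 to 3.63). Cells with Selp were 12% (5.64 to 21.6) in Ctrl and 49.4% (38.7 to 60.2) in AD, and after thinning 10.3% and 40.2%, against 0 and 0.299% of keratinocytes. The Ctrl level rests on few cells: 1 cell held 54 of the 115 UMIs. Without the top cell of each library the log2 ratio was 4.04, with cells of several gates kept it was 2.55, and with Leiden clusters in place of gates 2.71. The AD level was higher in each of these settings.

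Cells that passed several gates held 41.3% of the 247 Sele UMIs and 54.2% of the 334 Selp UMIs of the Ctrl library, against 15.8% of 3507 and 7.14% of 3402 in AD. In Ctrl these came from 3 cells for each gene, the highest with 71 Sele and 99 Selp UMIs. The blood vessel endothelial gate held 33.2% of Sele and 34.4% of Selp UMIs in Ctrl and 71.7% and 70.3% in AD, shares that also follow how many cells of each kind were captured.

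**Figure D2:**
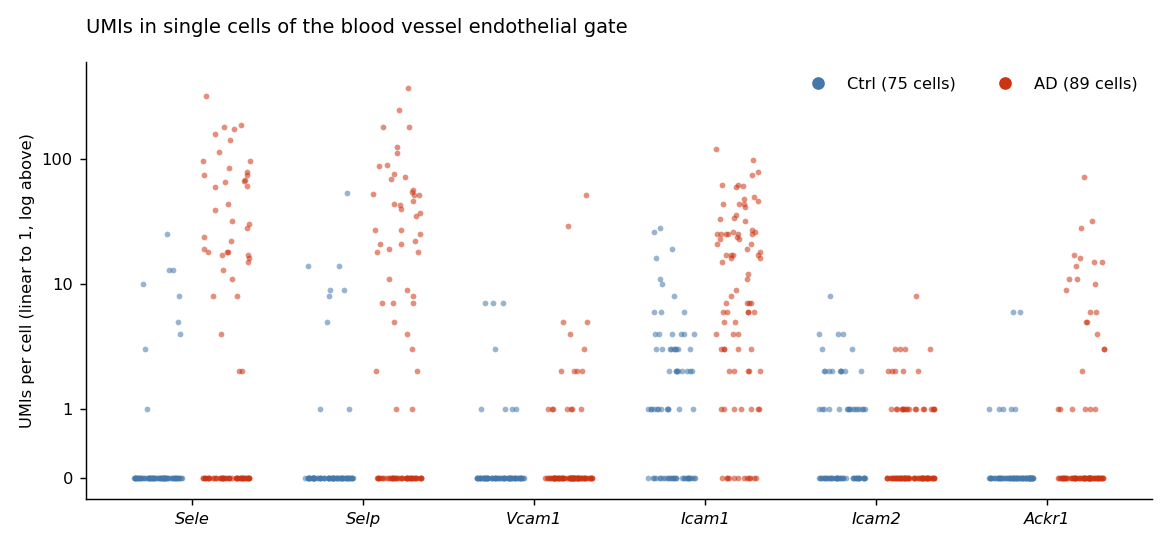
UMIs of each gene (x axis) in every cell of the blood vessel endothelial gate (y axis, linear up to 1 and log above), Ctrl in blue with 75 cells and AD in red with 89 cells, 1 point a cell with sideways jitter. AD cells reach 321 UMIs of Sele and 372 of Selp, while most cells of both libraries sit at 0 for these genes, and Icam2 does not pass 8.

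ICAM-1, the ligand of the integrins LFA-1 and Mac-1, was the most widely seen of the 6. Icam1 had 217 UMIs in Ctrl, or 506 CPM (441 to 578), and 1715 in AD, or 1960 CPM (1868 to 2055), which gives a log2 ratio of 1.95 (1.75 to 2.16). It was found in 61.3% of Ctrl cells (49.4 to 72.4) and 86.5% of AD cells (77.6 to 92.8), and after thinning in 39.7% and 63.2%. The median cell with Icam1 held 3 UMIs in Ctrl and 17 in AD, counts not adjusted for the higher depth in AD. In keratinocytes Icam1 was also present, so these give no background for it.

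VCAM-1, the ligand of the integrin VLA-4, was less different. Vcam1 had 28 UMIs in Ctrl, or 65.3 CPM (43.4 to 94.3), and 113 in AD, or 129 CPM (106 to 155), which gives a log2 ratio of 0.98 (0.38 to 1.64), just inside the 2-fold limit. It was found in 10.7% of Ctrl and 19.1% of AD cells, but after thinning in 4.41% and 2.30%, so the order of the shares turned with depth and no order is read from them. A single AD cell held 52 of the 113 UMIs. Without the top cell of each library the log2 ratio was 0.45, with the cells of the highest doublet scores left out it was 0.23, and with the ratios centred on the median gene it was 1.11 and past the limit.

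ICAM-2 went the other way. Icam2 had 60 UMIs in Ctrl, or 140 CPM (107 to 180), and 48 in AD, or 54.9 CPM (40.4 to 72.7), which gives a log2 ratio of -1.35 (-1.93 to -0.78). It was found in 41.3% of Ctrl cells (30.1 to 53.3) and 31.5% of AD cells (22.0 to 42.2), although AD cells were deeper, and after thinning in 10.3% and 3.45%. No cell of either library held more than 8 UMIs. The background in keratinocytes was 1.01% and 0.840% of cells.

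The Duffy antigen gene followed the selectins. Ackr1 had 17 UMIs in Ctrl, or 39.6 CPM (23.1 to 63.4), and 290 in AD, or 331 CPM (294 to 372), which gives a log2 ratio of 3.06 (2.36 to 3.86). Cells with Ackr1 were 7 of 75, or 9.33% (3.84 to 18.3), and 26 of 89, or 29.2% (20.1 to 39.8), and after thinning 1.47% and 18.4%, against 0.270% and 0.597% of keratinocytes. As a mean of each cell's own CPM the log2 ratio was smaller, at 2.42.

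Ackr1 counts need care, because the gene overlaps Cadm3, which encodes a nectin-like adhesion molecule of nerve and other cells, on the same strand. The spans overlap by 493 bases and the exons by 361 bases, from 173333390 to 173333750 of chromosome 1, where the 3′ end of Cadm3 lies over the 5′ end of Ackr1. Reads from the shared stretch cannot be assigned by strand. In the blood vessel endothelial gate Cadm3 was at 25.6 CPM (12.8 to 45.9) in Ctrl and 21.7 CPM (13.1 to 33.9) in AD, so the higher Ackr1 came without a higher Cadm3. There were 1.55 Ackr1 UMIs for each Cadm3 UMI in Ctrl and 15.3 in AD. Of cells with Ackr1, 28.6% in Ctrl and 30.8% in AD also had Cadm3, against 4.41% and 3.17% of the other cells of the gate. Cells with both genes were 2 in Ctrl and 8 in AD. The part of shared reads in the Ackr1 counts of this gate was not tested.

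In fibroblasts Cadm3 outnumbered Ackr1. Ackr1 was at 51.4 CPM (49.4 to 53.5) in Ctrl and 92.5 CPM (89.4 to 95.7) in AD there, which gives a log2 ratio of 0.85, but Cadm3 was at 126 and 145 CPM, with 0.408 and 0.637 Ackr1 UMIs for each Cadm3 UMI. Of fibroblasts with Ackr1, 79.7% in Ctrl and 73.3% in AD also had Cadm3, against 39.7% and 20.8% of the other fibroblasts. The Ackr1 level climbed with the Cadm3 count of the cell. Ctrl fibroblasts with no Cadm3 had 18.4 CPM of Ackr1, those with 1 UMI 49.5 CPM, those with 2 to 3 UMIs 79.8 CPM, and those with 4 or more 122 CPM. In AD the same groups had 25.9, 84.4, 149 and 244 CPM. Median depth climbed too, from 7730 to 11791 UMIs in Ctrl and from 6380 to 12679 in AD, although CPM is already relative to depth. The part of shared reads in the Ackr1 counts of fibroblasts was not tested. Fibroblast Ackr1 is reported as uncertain for that reason, and with it the 83.1% and 82.0% of all Ackr1 UMIs that fibroblasts held in Ctrl and AD.

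**Figure D3:**
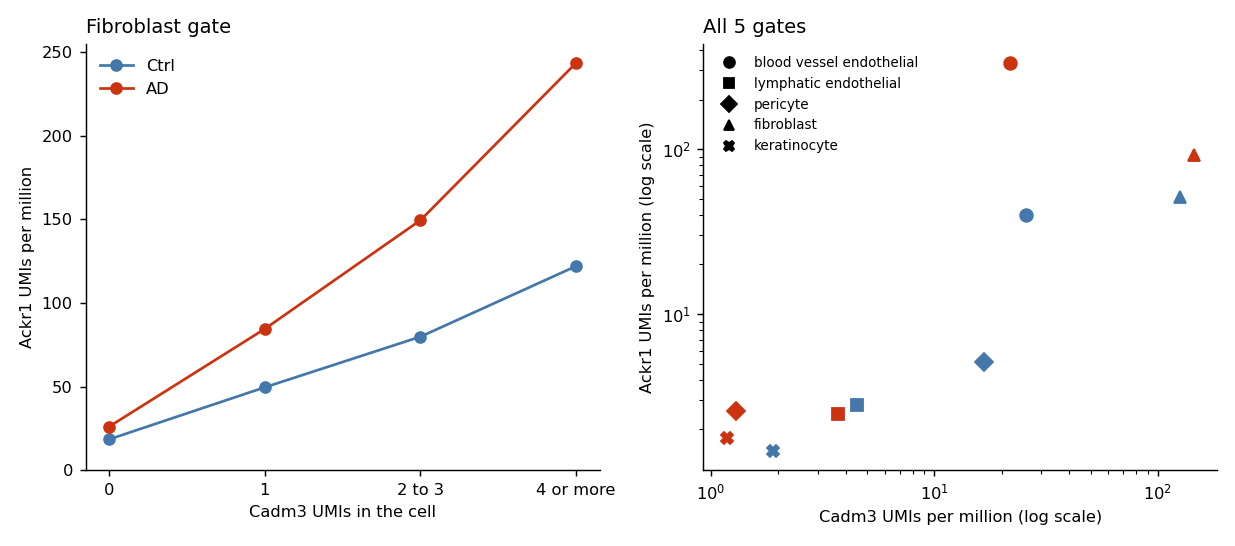
Left, Ackr1 CPM (y axis) in fibroblasts grouped by their Cadm3 UMIs (x axis), Ctrl in blue and AD in red, rising from 18.4 to 122 and from 25.9 to 244. Right, Ackr1 against Cadm3 CPM (both log axes) in the 5 gates, where AD blood vessel endothelial cells stand apart with 331 CPM of Ackr1 at 21.7 CPM of Cadm3.

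Within the blood vessel endothelial gate, the levels of the selectins and Ackr1 in AD were highest in cells with venous markers. Each cell was given to the vessel segment whose markers had most UMIs. Venous cells were 10 of 75 in Ctrl, or 13.3%, and 39 of 89 in AD, or 43.8%, capillary cells 32 and 25, and arterial cells 25 and 16, with 8 and 9 in no segment. By these markers the gate held more venous cells in AD, and the ratios of the whole gate include that shift.

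Sele was at 1309 CPM (1010 to 1668) in venous cells of Ctrl and 5225 CPM (5008 to 5449) in those of AD, which gives a log2 ratio of 2.00 (1.64 to 2.38). The whole gate gave 3.91 and the capillary cells 5.79 (4.42 to 7.68). It was found in 6 of 10 and 31 of 39 venous cells. In capillary cells it was at 17.8 CPM from 4 UMIs in Ctrl and 984 CPM in AD, where 5 of 25 cells carried it. No Sele UMI was found in arterial cells of either library.

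Selp was at 926 CPM (678 to 1236) in Ctrl and 4792 CPM (4584 to 5006) in AD venous cells, which gives a log2 ratio of 2.37 (1.95 to 2.83). In capillary cells it was at 66.6 and 1008 CPM, with 2 of 32 and 6 of 25 cells positive and a log2 ratio of 3.92 (3.17 to 4.78), where single cells weigh heavily: without the top cell of each library Ctrl had 1 UMI and AD 106. In arterial cells it was at 0 in Ctrl and at 230 CPM in AD, from 2 cells. Ackr1 was at 161 CPM (69.5 to 317) and 563 CPM (493 to 639) in venous cells, with a log2 ratio of 1.80 (0.80 to 3.03), or 3.19 without the top cell of each library, which leaves 2 Ctrl UMIs. Outside these, 2 capillary cells in each library, 1 arterial cell in Ctrl and 2 in AD, and 1 cell of no segment in Ctrl and 3 in AD carried it. The Ctrl cells of no segment held 54 of the 115 Selp UMIs, all in 1 cell, and thus stood at 1711 CPM, above the Ctrl venous cells. They also held 13 of the 82 Sele and 6 of the 17 Ackr1 UMIs.

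Icam1 and Vcam1 were spread otherwise. Icam1 was at 826 and 2107 CPM in venous cells and at 209 and 2024 CPM in capillary cells, a capillary log2 ratio of 3.28 (2.85 to 3.74) against a venous one of 1.35 (0.90 to 1.84). In arterial cells it was already at 1003 CPM in Ctrl and at 1254 CPM in AD, which gives a log2 ratio of 0.32 (-0.03 to 0.67). Vcam1 was mostly arterial, with 220 CPM (145 to 320) in Ctrl and 746 CPM (603 to 913) in AD and a log2 ratio of 1.76 (1.13 to 2.43), from 7 of 25 and 6 of 16 cells. That call rests on 1 cell: without the top cell of each library, 20 and 42 UMIs were left and the log2 ratio was 0.90 (0.10 to 1.75), under 2-fold. The arterial ratio of Icam1 was then -0.20 (-0.63 to 0.22). In venous cells Vcam1 had 1 UMI in Ctrl and 6 in AD. Icam2 was at 151 CPM in Ctrl against 59.9 CPM in AD capillary cells, with a log2 ratio of -1.33 (-2.27 to -0.45). In arterial cells it was at 163 and 87.3 CPM, with a log2 ratio of -0.90 (-2.11 to 0.23). In venous cells it had 1 UMI in Ctrl and 16 in AD, or 20.1 and 38.3 CPM, with a log2 ratio of 0.93 (-1.76 to 6.32). The part of the larger venous share of AD in the Icam2 ratio of the whole gate was not tested.

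**Figure D4:**
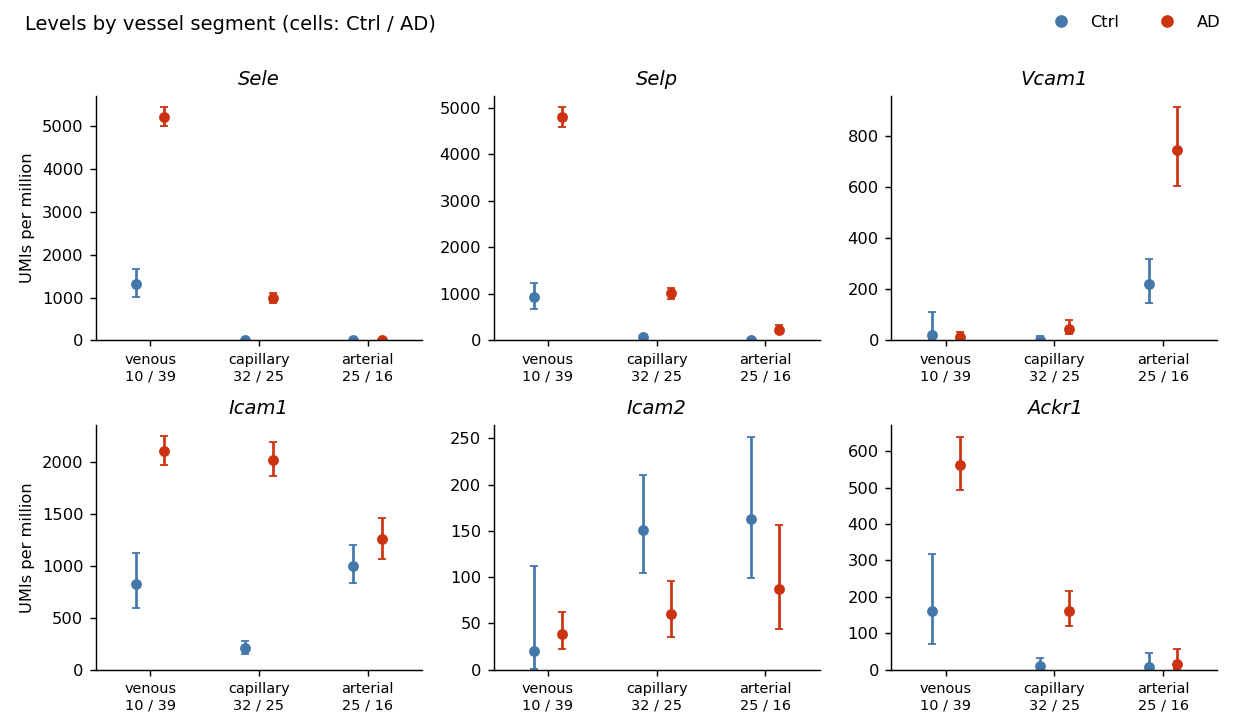
CPM of each gene (y axis) in venous, capillary and arterial cells (x axis, with the number of Ctrl and AD cells), Ctrl in blue and AD in red, with 95% counting intervals as bars. Sele, Selp and Ackr1 are highest in AD venous cells, Vcam1 is highest in AD arterial cells at 746 CPM with 52 of its 94 UMIs there in 1 cell, and Icam2 is lower in AD in capillary cells.

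The segments depend on their markers. Lrg1, a venous marker that inflammation is also known to raise, was at 463 CPM in Ctrl against 1291 CPM in AD venous cells. It was also higher in AD in capillary cells, at 240 and 462 CPM, and in arterial cells, at 8.16 and 183 CPM from 1 and 23 UMIs. In venous cells Nr2f2, the regulator of venous identity, was at 302 and 340 CPM and Vwf at 624 and 388 CPM. Without Lrg1 the venous cells were 6 and 17, Sele stood there at 1500 and 7138 CPM, and the venous log2 ratio of Icam1 was 2.23 in place of 1.35. Capillary cells then numbered 35 and 43 and in AD held more selectin UMIs than the venous ones: 1482 against 797 of Sele, 1370 against 768 of Selp, and 205 against 64 of Ackr1. Their AD levels stayed below the venous ones, at 2664 CPM for Sele, 2463 CPM for Selp and 369 CPM for Ackr1, against 7138, 6878 and 573 CPM. So the share of these UMIs in venous cells turns on whether Lrg1 counts as a venous marker.

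Sele, Selp and Ackr1 met in the same cells. All 9 Ctrl cells with Sele had Selp and none of the others did, and in AD 39 of the 40 Sele cells had Selp, against 10.2% of cells without Sele. Of the 26 AD cells with Ackr1, 24 had Sele, and of the 7 Ctrl cells 5 did. Cells with Sele, Selp and Ackr1 together were 5 in Ctrl and 24 in AD, while 64 and 42 cells had none of these 3 genes. Sele was in 0 of the 8 Ctrl Vcam1 cells, against 13.4% of the Ctrl cells without Vcam1. In AD it was in 8 of the 17 Vcam1 cells, against 44.4% of the others. Icam2 was in 1 of 9 Sele cells in Ctrl, against 45.5% of the cells without Sele, and in 12 of 40 in AD, against 32.7%. Cells with Sele were deeper than those without it, with medians of 5482 against 4295 UMIs in Ctrl and 10739 against 7508 in AD.

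In lymphatic endothelial cells all 5 genes with enough UMIs were past the 2-fold limit, 4 of them higher in AD and Icam2 lower. Of the 7664 genes tested there, 3.30% were higher and 6.80% lower, 10.1% in all. The minimum is again summed over both libraries. Selp and Vcam1, with 19 and 30 UMIs in Ctrl, reached it through AD, with 115 and 213. Icam2, with 42 UMIs in AD, reached it through Ctrl, with 126. The count of genes past the limit therefore depends in part on that minimum. Other cells differed here too: the 7 fibroblast markers summed to 1855 CPM in Ctrl and 274 CPM in AD, all 6 with enough UMIs were lower by at least 2-fold, and their part in the results was not tested. Icam1 stood at 362 CPM (334 to 391) in Ctrl and 1242 CPM (1198 to 1287) in AD, which gives a log2 ratio of 1.78, and was found in 53.0% and 73.7% of cells. Vcam1 was at 16.9 CPM (11.4 to 24.2) and 87.7 CPM (76.4 to 100), which gives a log2 ratio of 2.37 (1.82 to 2.98), and after thinning it was found in 0 of 284 and 5.82% of cells. Icam2 was at 71.1 CPM (59.3 to 84.7) and 17.3 CPM (12.5 to 23.4), which gives a log2 ratio of -2.04 (-2.58 to -1.53), and after thinning in 7.04% and 1.71% of cells.

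Both selectins were far lower in lymphatic than in blood vessel endothelial cells. Sele was at 28.8 and 65.1 CPM and Selp at 10.7 and 47.4 CPM, with Sele in 8 of 298 and 12 of 308 cells. The Sele ratio of 1.18 rests on few cells, since 1 Ctrl cell held 41.2% and 1 AD cell 29.1% of its UMIs, and as a mean of each cell's own CPM it was 0.46. Ackr1 had 5 UMIs in Ctrl and 6 in AD, in 1.68% and 1.62% of cells, which is not above the keratinocyte background.

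**Figure D5:**
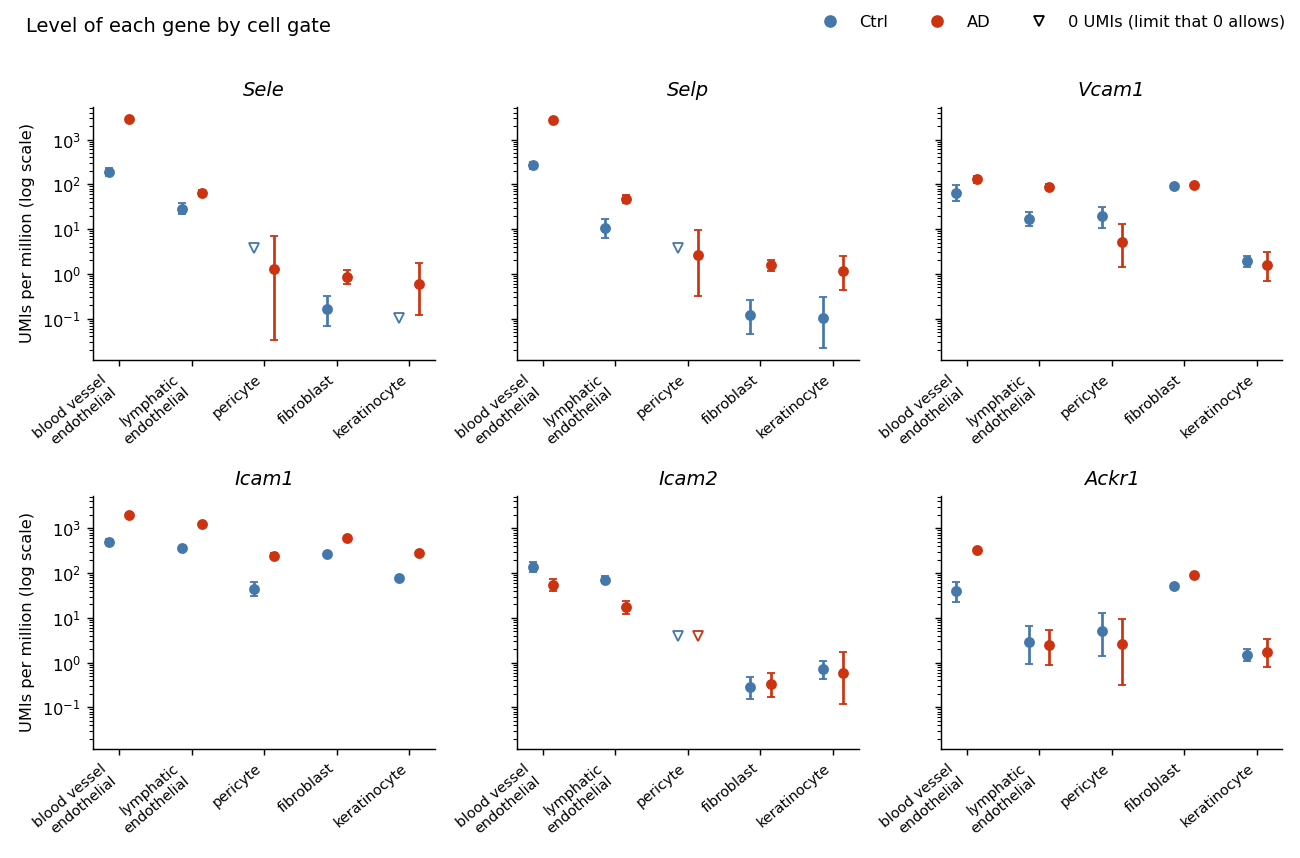
CPM (log axis) of each gene in the 5 gates (x axis), Ctrl in blue and AD in red, with 95% counting intervals as bars and open triangles at the limit that 0 UMIs allow. Sele and Selp drop from the blood vessel endothelial gate to near 1 CPM or less in fibroblasts and keratinocytes, whereas Icam1 is above 40 CPM in every gate and the Vcam1 level of Ctrl fibroblasts, 93.7 CPM, overlaps within its interval with that of Ctrl blood vessel endothelial cells.

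The pericyte gate, meant for the cells wrapped around small vessels but also rich in smooth muscle markers, had little of the set apart from Icam1. Icam1 was at 44.9 CPM (31.2 to 62.4) in Ctrl and 246 CPM (212 to 284) in AD, which gives a log2 ratio of 2.46 (1.93 to 3.02), where 6.79% of the 4701 genes tested were higher in AD by at least 2-fold, and 15.8% differed by that much in either direction. With cells of several gates kept it was 1.33. The vascular smooth muscle markers of the gate were lower in AD, as given above, with Myh11 at 6000 and 2808 CPM, and their part in the Icam1 ratio was not tested. Sele had 0 and 1 UMIs, Selp 0 and 2, and Icam2 none in either library, which allows up to 2.10% of Ctrl and 3.57% of AD pericytes with a UMI. Vcam1 had 15 UMIs in Ctrl, 14 of them in 1 cell, and 4 in AD.

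Fibroblasts, the most numerous cells, held most of the Icam1 and Vcam1 of the skin. They held 65.6% of Icam1 UMIs in Ctrl and 65.9% in AD, and 76.7% and 69.5% of Vcam1 UMIs. Icam1 was at 268 CPM (263 to 272) in Ctrl and 619 CPM (611 to 627) in AD, which gives a log2 ratio of 1.21, where 9.02% of the 14516 genes tested were higher and 20.4% lower, 29.4% in all. Of the fibroblast genes past the limit, 30.7% were higher, and 40.8% after centring on the median gene. Vcam1 did not differ beyond its counting error, at 93.7 CPM (91.0 to 96.4) and 96.0 CPM (92.8 to 99.3), which gives a log2 ratio of 0.04 (-0.03 to 0.10). It was found in 35.2% of Ctrl and 23.6% of AD fibroblasts and after thinning in 7.13% and 6.36%. Fibroblast collagen differed strongly between the libraries, with Col1a1 at 11566 CPM in Ctrl against 797 CPM in AD, which enters the totals that CPM is relative to. Leiden clusters of fibroblasts each lay mostly in 1 library, such as 1272 Ctrl and 0 AD cells or 12 and 1173. The part of this make-up in the fibroblast ratios was not tested.

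The selectins and Icam2 in fibroblasts were at the level of the background. Sele had 8 and 31 UMIs and Selp 6 and 56, or 0.121 and 1.55 CPM, against 0.106 and 1.18 CPM of Selp in keratinocytes, and the Selp intervals of these gates overlapped in each library. The fibroblast Selp ratio of 3.69 passed the limit but is not read as expression for that reason. The AD fibroblasts with Selp held at most 2 UMIs each.

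In keratinocytes Icam1 was at 79.9 CPM (76.6 to 83.2) in Ctrl and 276 CPM (262 to 291) in AD, which gives a log2 ratio of 1.79 (1.69 to 1.89), where 6.67% of the 12575 genes tested were higher by at least 2-fold and 15.7% lower, 22.4% in all. On all deposited barcodes, without the cell filter, it was 1.18. Vcam1 and Ackr1 were between 1.48 and 1.90 CPM, and Icam2 and Sele under 1 CPM, in both libraries. Leiden clusters of keratinocytes were shared unevenly by the libraries. Some held 512 Ctrl and 2 AD cells or 448 and 0, others 318 and 194 or 171 and 157. The part of this make-up in the keratinocyte ratio of Icam1 was not tested. Icam1 was thus higher in AD by at least 2-fold in all 5 gates, and it was the one gene of the 6 with enough UMIs in each of them.

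Ordered by level, Sele and Selp ran from blood vessel to lymphatic endothelial cells in both libraries, with pericytes, fibroblasts and keratinocytes not told apart in AD. For Icam1 the order in Ctrl was blood vessel endothelial, lymphatic endothelial, fibroblast, keratinocyte and pericyte, and in AD keratinocytes and pericytes, at 276 and 246 CPM, did not differ beyond counting error. For Vcam1 the fibroblast and the blood vessel endothelial levels overlapped in Ctrl, as did the fibroblast and lymphatic endothelial levels in AD. For Icam2 both endothelial gates were far above the rest, with blood vessel above lymphatic endothelial cells in each library. For Ackr1 blood vessel endothelial cells and fibroblasts overlapped in Ctrl, and in AD the former were higher.

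Among leukocytes, macrophages carried Vcam1, which is known from tissue macrophages. It was at 72.5 CPM (61.8 to 84.4) in 376 Ctrl cells and 308 CPM (281 to 337) in 141 AD cells, which gives a log2 ratio of 2.09 (1.83 to 2.35), where 5.58% of 7002 genes were higher by at least 2-fold and 8.34% lower, 13.9% in all. After thinning it was found in 5.61% and 14.2% of macrophages. Icam1 was at 130 and 159 CPM in macrophages and at 185 and 132 CPM in T cells. Neither passed 2-fold, a size that 2.73% of the 7324 genes tested in T cells passed upward and 8.27% downward.

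The partners of the 6 genes were taken from lists. The leukocyte ligands comprise the P-selectin ligand Selplg, L-selectin, the integrin chains and the enzyme Fut7, and none of the 9 with enough UMIs in the leukocyte gate was past 2-fold in either direction, where 4.22% of genes were higher and 8.70% lower, 12.9% in all. Their median log2 ratio was -0.46, against -0.09 over all genes tested there. Itgam, the chain of Mac-1, was at 78.0 and 137 CPM, which gives a log2 ratio of 0.82, and Itgal, the chain of LFA-1, at 131 and 66.1 CPM, which gives a log2 ratio of -0.99. Itga4, the chain of VLA-4, was at 143 and 90.2 CPM. The make-up of the leukocyte gate differed as well, with the 4 neutrophil markers at 58.0 and 3645 CPM in sum, the 7 macrophage markers at 3939 and 2090 CPM and the 5 T cell markers at 1118 and 1036 CPM. Their part in these ratios was not tested.

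On the endothelial side, 5 of 9 genes of rolling and docking were tested in the blood vessel endothelial gate, with none higher, 1 lower and a median log2 ratio of -0.52, against -0.13 over all genes. The lower gene was Podxl, a sialomucin, at 690 and 261 CPM. Glycam1 was at 0 in both libraries, and Madcam1, the address molecule of gut vessels, had 0 and 9 UMIs. Of the 11 junction and transmigration genes 8 were tested, with 1 higher, none lower and a median of 0.15. The higher gene was Itgb3, an integrin chain, at 25.6 and 126 CPM from 11 and 110 UMIs. Pecam1 and Cdh5, which were gate markers, were at log2 ratios of 0.14 and -0.14. Of all genes tested in the gate, 4.78% were higher and 7.38% lower, so 1 gene of 5 or of 8 is not read as a result about these lists.

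Of 13 tested genes known from NF-κB activated endothelium, 4 were higher and none lower by at least 2-fold, beside 4.78% and 7.38% of all genes in the gate. Their median log2 ratio was 0.70. The 4 were the neutrophil chemokines Cxcl1, at 193 and 801 CPM, and Cxcl2, at 4.66 and 152 CPM, the growth factor Csf3, at 72.3 and 1054 CPM, and the interleukin-1 receptor Il1r1, at 86.2 and 199 CPM. The inhibitor Nfkbia was at 3529 and 5905 CPM, which gives a log2 ratio of 0.74, and the chemokine Ccl2 at 44.3 and 41.1 CPM. Birc3 was at 65.3 and 36.6 CPM, with a log2 ratio of -0.84 (-1.61 to -0.05). Nfkb1 had a log2 ratio of -0.23 (-0.61 to 0.16). In lymphatic endothelial cells 5 of 13 were higher and none lower, beside 3.30% and 6.80% of all genes, with a median of 0.87: Nfkbia, Tnfaip3, Cxcl1, Ccl2 and Relb.

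A list of cytokine receptors and signal genes had a median log2 ratio of 0.77 over 7 genes in the blood vessel endothelial gate with none past 2-fold. After centring 3 were higher, as were 260 of all 4118 genes. The list was drawn up for type 2 cytokines, but Il6st, Stat3 and Socs3 in it serve mainly the interleukin-6 family. Stat6, the factor of interleukin-4 signalling, was at 51.3 and 32.0 CPM, with a log2 ratio of -0.68 (-1.54 to 0.19). Il4ra, the receptor chain of interleukin-4 and interleukin-13, was at 138 and 262 CPM, which gives a log2 ratio of 0.93 (0.51 to 1.37). Immediate early and stress genes, which digestion of tissue can raise, went both ways, with 1 of 11 higher and 2 lower, beside 4.78% and 7.38% of all genes, and a median of -0.41. Ier3 was higher at 1219 and 2827 CPM, and the heat shock genes Hspa1a and Hspa1b were lower, at 2165 and 656 CPM and at 2154 and 641 CPM. How far handling of the tissue bears on the 6 genes was not tested.

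Across 7 gates in both libraries, 14 points in all, the genes most like each of the 6 were sought by Pearson's r of log2(CPM + 1) among genes with at least 50 CPM in a gate. The points share libraries and depths, so r is a description only. Sele and Selp were most like each other, with r of 0.99, followed for both by Upp1 and Ch25h. Icam2 was most like Nos3 (0.97), Rasgrf2 and Bmx, and Ackr1 most like Ly6c1 (0.94), Plscr2 and Lpar4. The points of Ackr1 include its fibroblast levels, which are reported above as uncertain. Icam1 was most like Emp1 (0.88), Git1 and Slk, and Vcam1 most like Rgl1 (0.93), St3gal1 and Arl8a. Vcam1 was the least like the other members, with r between 0.23 for Icam2 and 0.54 for Ackr1.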

How the data were processed

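Single-cell suspensions of dorsal skin were profiled with a droplet 3′ assay (10x Genomics). The deposited matrices hold UMI counts per gene and barcode, made by the authors with Cell Ranger and not normalized. The matrix header names version 5.0.0, the submitters' processing notes 3.1.0 with Seurat 5.0 and mm10, and the methods a further version. The sources also differ on the collagenase used.

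The stated filter was used: barcodes with fewer than 200 or more than 6000 genes, or over 10% mitochondrial UMIs, were removed. A gate required 4 of 11 markers (blood vessel endothelial, with Prox1 at 0 and at most 1 lymphatic marker), 3 of 6 (lymphatic endothelial), 4 of 8 (pericyte), 3 of 7 with Pdgfra (fibroblast), 5 of 11 (keratinocyte) or 3 of 4 (leukocyte). Within leukocytes, macrophages required 3 of 7 and T cells 3 of 5 markers. These numbers of markers and the rule on lymphatic markers were set after the data were seen. Doublets were treated only by leaving out cells of several gates.

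UMIs were summed per gate and library. Levels have exact Poisson intervals, shares Clopper-Pearson intervals, and ratios the exact conditional binomial interval, all at 95%. PCR and cell sampling are not covered. A share at 0 is bounded by 3 counts. Ratios were computed for every gene, and genes with at least 50 UMIs over both libraries were tested against a fold of 2, a count of 0 being set to 0.5 for that step only. The script was tested on simulated data. Shares were recomputed with each cell thinned once to 1000 UMIs. Named genes are the 6 members, genes of the lists and markers, and the 3 genes most like each member. Alternatives were other cell filters, gates, scalings, Leiden clusters and doublet scores. Python 3.11.15, numpy 2.4.6, scipy 1.17.1, pandas 2.3.3 and scanpy 1.11.5 were used. Coordinates are from GENCODE M21, in which 32475 of the 33904 gene IDs were found. The members, lists and markers were chosen with earlier results of these data known.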

Additional observations from a re-analysis of the deposited data

Results flagged for a closer look

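Icam1 differed between the libraries in opposite directions in different cells. Its log2 ratio, AD over Ctrl, was above 0 beyond counting error in blood vessel endothelial cells (1.95), lymphatic endothelial cells (1.78), pericytes (2.46), fibroblasts (1.21), keratinocytes (1.79), all leukocytes (0.37) and macrophages (0.29), and below 0 in T cells (-0.49). The ratios of leukocytes, macrophages and T cells stayed under 2-fold and were not recomputed under other settings. In T cells the median log2 ratio of all genes tested was itself -0.20. The difference between these gates was not tested, since each group is 1 library.

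Cells that passed no gate were used in no comparison, yet AD cells of that kind held 29.3 CPM of Sele, 72.2 CPM of Selp and 312 CPM of Icam1, against 0.547, 1.23 and 161 CPM in Ctrl. Most of these selectin UMIs lay in endothelial cells kept out of the blood vessel endothelial gate for Prox1 or several lymphatic markers: 17 such AD cells held 201 of the 232 Sele and 540 of the 572 Selp UMIs, and 29 such Ctrl cells 3 of 4 and 7 of 9. A single AD cell of no gate held 171 of the 572 Selp UMIs.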

How the results depend on the processing

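Of 242 recomputed ratios of the 22 pairs of gene and gate with at least 20 UMIs and none at 0, 205 stayed within the counting interval of the reported value, 37 moved outside it and none of the called ones changed sign. In the blood vessel endothelial gate, 56 of 66 stayed. Shares were less stable: of 120 recomputed shares of cells with a UMI, 47 moved outside their interval. Of 60 shares of UMIs held by a gate, 35 did so with Leiden clusters in place of gates. Among 36 recomputed segment ratios, 7 moved. With cells of several gates kept, the log2 ratio of Sele was 3.46 and of Selp 2.55. With Leiden clusters they were 3.46 and 2.71, and that of Icam1 1.72. Without the top cell they were 4.26 and 4.04. As a mean of each cell's own CPM, Selp was at 2.90, and with endothelial cells that carry lymphatic markers kept, at 3.69. Leaving out the highest doublet scores put Vcam1 at 0.23. That setting, leaving out the top cell, also within segments, dropping Lrg1 and keeping the cells with lymphatic markers were chosen after seeing the data. Over all alternatives Ackr1 ran from 2.42 to 3.30 and Icam2 from -1.44 to -1.06. The causes of these shifts were not tested. Scrublet marked 441 Ctrl cells but 1 AD cell, so the planned removal of doublets by its calls was not run.

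Thinned to 1000 UMIs, the shares of blood vessel endothelial cells were 4.41% (Ctrl) and 2.30% (AD) for Vcam1, 39.7% and 63.2% for Icam1, 10.3% and 3.45% for Icam2 and 1.47% and 18.4% for Ackr1. The counts of genes higher and lower by 2-fold in that gate, 197 and 304, were 425 and 740 with a minimum of 20 UMIs, 55 and 57 with 200, and 511 and 866 at a fold of 1.5. In those settings 4 or 5 of the 6 genes were higher and Icam2 was lower, except that Icam2 and Vcam1 have too few UMIs for the minimum of 200. The number of genes tested changes with the minimum, so these counts are not shares.

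No paired analysis was possible because each group has 1 library. With 75 and 89 cells in the main gate, values from under about 20 UMIs have wide intervals, and the spread between mice was not measured.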
